A study of Mus musculus with 9 samples.

Results

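Glycolysis and hypoxia response genes were followed across KSL cells of 3 kinds of mice. KSL cells are the c-Kit+, Sca-1+, lineage-negative and IL7Ra- fraction of bone marrow, which holds the blood stem cells and the earliest progenitors. The set was a list of 36 enzymes, transporters and targets of hypoxia-inducible factor (HIF), taken by name, with each gene read from its brightest probe set that carried 1 gene symbol. In all, 33 of the 36 had such a probe set and were tested among 12393 genes. Gpi1 and Eno1 had no probe set under those symbols, and Gapdh had single-symbol probe sets only among the array's controls.

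Glycolysis splits glucose into pyruvate, which is turned into lactate or sent to the mitochondria. When oxygen is scarce the prolyl hydroxylases stop marking HIF-1α for destruction, and the stabilised factor switches on glucose transporters, glycolytic enzymes, lactate export and pyruvate dehydrogenase kinases by binding a short core motif, the hypoxia response element. Blood stem cells in the marrow are known for relying on glycolysis more than their progeny do, with HIF-1α and Meis1 among the factors linked to this state.

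There were 3 groups with 3 biological replicates and 1 Affymetrix array each, all on a C57BL/6 background. RUNX1(41-214) mice carried cells with a retroviral vector that expresses this stretch of the transcription factor RUNX1, where its Runt domain binds DNA. Their cells were taken 4 months after transduction and transplantation. Runx1KO mice were Runx1 floxed/floxed MxCre+/- and Control mice Runx1 floxed/floxed MxCre-/-, both sampled 3 months after poly IC, an interferon inducer that switches on the Mx promoter of the Cre transgene in blood and in other tissues. The labels name no poly IC for the RUNX1(41-214) mice, and no transplanted cells with an empty vector were among the 9 arrays, so the fragment, the transduction, the transplantation, the missing poly IC and the extra month cannot be told apart. The labels call the replicates biological and do not say whether an array held 1 mouse or a pool, so p-values measure the spread between these samples.

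Levels are log2(signal + 16) after quantile normalization, where the offset of 16 sets a floor and understates changes of dim genes. Array medians of the deposited signal ran from 125 to 147. The gate's c-Kit gene Kit averaged 11.72 in RUNX1(41-214), 11.64 in Runx1KO and 11.15 in Control cells, and Sca-1 (Ly6a) had no single-symbol probe set. Runx1 itself read 10.82 to 11.06 in RUNX1(41-214), 11.20 to 11.73 in Runx1KO and 9.88 to 10.73 in Control cells, and since the position of its probes relative to the deleted part is not known here, this does not check the deletion. Runx1KO replicate 3 and Control replicate 2 had the highest log2 ratios of 3′ to 5′ Gapdh control signal, a sign of RNA integrity, at 2.13 and 1.85, with the other 7 arrays between 0.98 and 1.29. The members' results were also computed without these 2 arrays.

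The promoters of 3 genes are shown: those of Ldhb and Eno2, the 2 genes that fell, and that of Ldha, the partner of Ldhb that did not pass the test. These promoters were picked with the test's outcome known, and a link between their motifs and the fall was not tested. Each is the 250 bases before the gene's start in the RefSeq annotation of build GRCm38.p6, read 5′ to 3′ on the gene's strand. They lie at chr6:142507958-142508207 on the minus strand (Ldhb), at chr6:124769674-124769923 on the minus strand (Eno2) and at chr7:46845554-46845803 on the plus strand (Ldha, the more upstream of its 2 annotated starts). Capitals mark the hypoxia response element core ACGTG on either strand, which where it reads CACGTG is also an E-box.
Ldhb: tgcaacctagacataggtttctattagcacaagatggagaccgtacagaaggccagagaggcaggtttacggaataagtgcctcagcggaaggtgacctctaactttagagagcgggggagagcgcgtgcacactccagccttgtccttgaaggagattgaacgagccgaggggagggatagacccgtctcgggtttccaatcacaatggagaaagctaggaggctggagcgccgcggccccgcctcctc
Eno2: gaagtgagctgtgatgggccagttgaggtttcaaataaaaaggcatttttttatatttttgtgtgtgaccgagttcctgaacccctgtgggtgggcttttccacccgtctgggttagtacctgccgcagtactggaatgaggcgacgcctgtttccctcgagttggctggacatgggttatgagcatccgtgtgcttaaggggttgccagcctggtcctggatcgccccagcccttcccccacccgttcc
Ldha: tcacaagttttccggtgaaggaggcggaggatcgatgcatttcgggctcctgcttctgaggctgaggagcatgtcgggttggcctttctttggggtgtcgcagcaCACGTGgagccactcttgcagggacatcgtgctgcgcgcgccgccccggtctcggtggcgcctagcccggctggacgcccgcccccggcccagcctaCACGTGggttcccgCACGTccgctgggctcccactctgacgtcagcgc

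The core stood at 3 places in the Ldha window, 2 of them CACGTG, and at 0 in those of Ldhb and Eno2. The RUNX core TGTGGT, searched on both strands, was in 0 of these 3 windows. Of the 31 tested members with a promoter in the RefSeq table, 21 held ACGTG in at least 1 of their windows (67.7%). The share was 23.0% for the 9887 measured genes that matched and 18.5% for all 27025 genes. Counted by window, ACGTG was in 24 of the members' 44 (54.5%), against 16.6% of all 32851. The members were listed by name as glycolytic enzymes and HIF targets, so a high share was built into the choice and is not a finding. The members without it were Aldoc, Eno2, Eno3, Higd1a, Hk1, Ldhb, Pdk1, Pfkl, Pfkp and Tpi1, of which only Eno2 and Ldhb passed in a comparison. TGTGGT was in the windows of 6 members (19.4%), namely Aldoc, Hk1, P4ha2, Pdk1, Pfkp and Slc2a1, against 13.5% of measured genes. Ndrg1 and Slc2a3 were not matched. These are letter matches in windows of different base composition, 67.2% G or C for Ldha, 56.4% for Ldhb and 54.4% for Eno2, and not mapped binding sites.

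Few of the glycolytic and hypoxia transcripts differed between groups. Ldhb, the heart-type lactate dehydrogenase subunit, and Eno2, the neuronal enolase, fell in RUNX1(41-214) against Control cells, and 0 members rose. Eno2 was dim, at the 19.6th percentile of mean signal, and its call was lost without any 1 Control or RUNX1(41-214) array. In Runx1KO against Control cells, and in RUNX1(41-214) against Runx1KO cells, 0 of 33 passed the test. Of the 33 members, 2 passed in RUNX1(41-214) against Control (6.06%, both lower), where 4.28% of all genes passed, 1.73% upward and 2.56% downward. For Runx1KO against Control 0.347% of all genes passed, 0.234% upward and 0.113% downward. For RUNX1(41-214) against Runx1KO 1.36% did, 0.299% upward and 1.06% downward. All calls are limma's, with Benjamini-Hochberg adjustment over the 12393 genes and a threshold of 0.05. The share of members called was thus near that of all genes.

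The median log2 fold change of the 33 members was 0.01 in RUNX1(41-214) against Control, beside 0.02 for all genes. It was -0.03 beside 0.00 in Runx1KO against Control, and -0.06 beside 0.02 in RUNX1(41-214) against Runx1KO. At an unadjusted p under 0.05 there were 7 members in the first comparison, 1 in the second and 4 in the third, against 15.5%, 7.22% and 10.6% of all genes. The RUNX1(41-214) and Control arrays did not overlap for 8 members (3 higher, 5 lower), where this held for 20.3% of all genes (10% higher, 10.2% lower). The Runx1KO and Control arrays did not overlap for 2 members, both higher, against 10.5% of all genes (5.34% higher, 5.2% lower). The RUNX1(41-214) and Runx1KO arrays did not overlap for 9 members (3 higher, 6 lower), against 18.8% of all genes (9.68% higher, 9.13% lower).

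**Figure D1:**
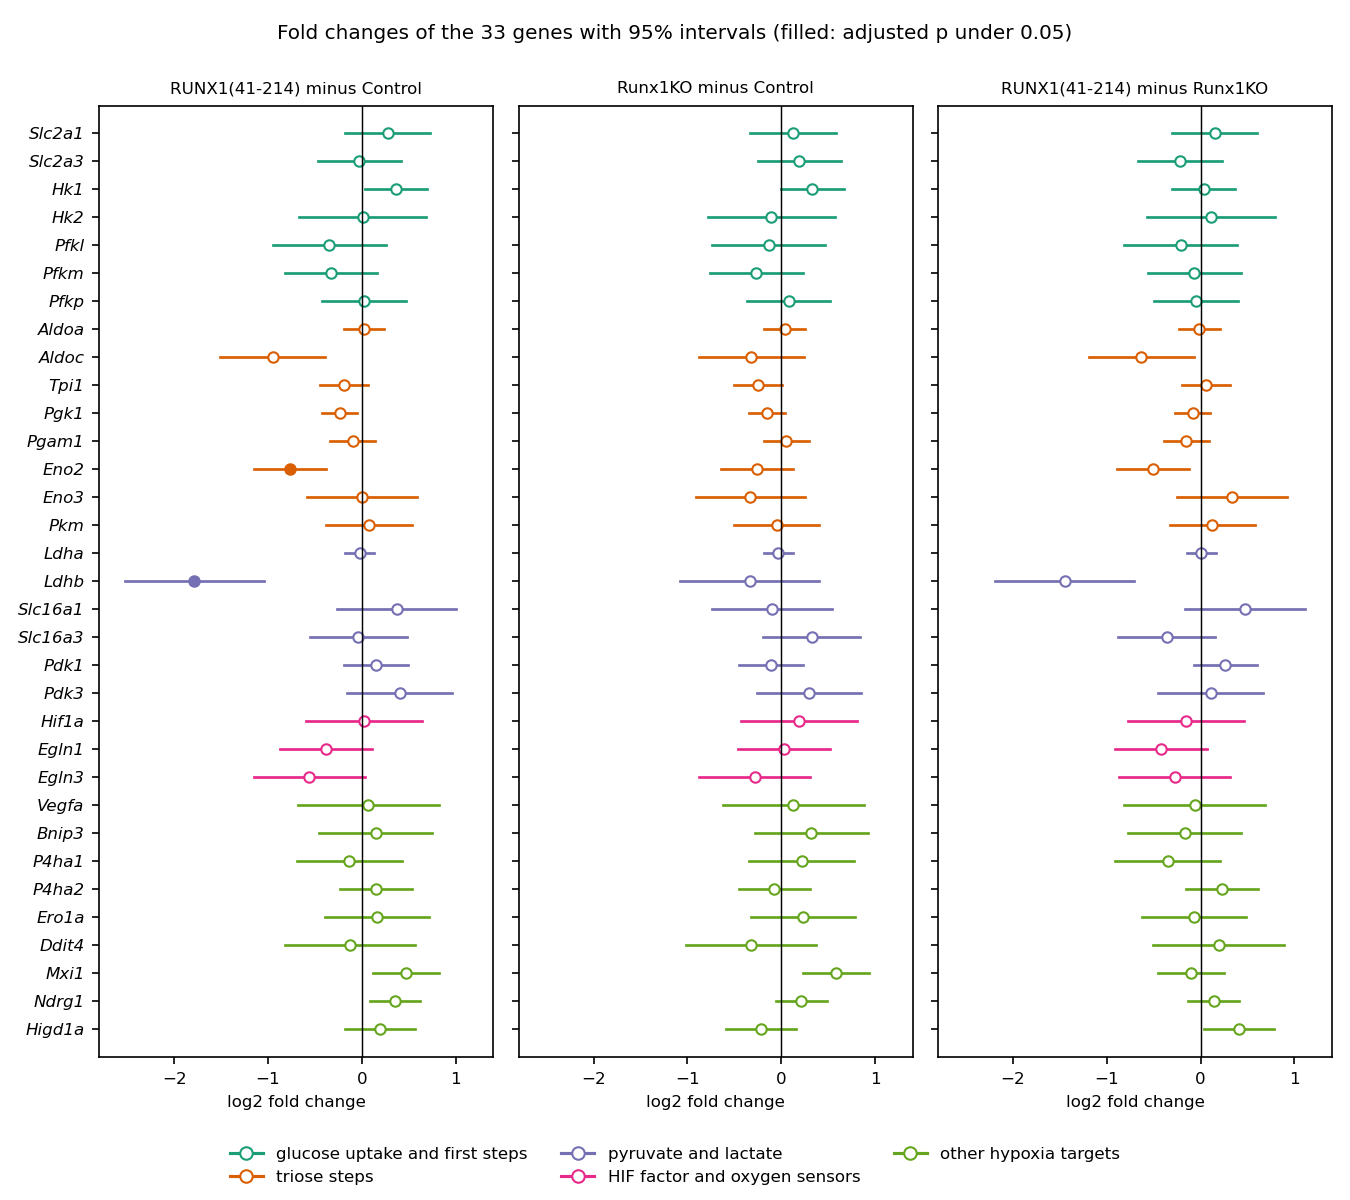
Log2 fold changes (x axis) of the 33 genes (rows, ordered by role) in the 3 comparisons, with 95% intervals as lines and filled points where the adjusted p was under 0.05. Ldhb at -1.79 and Eno2 at -0.77 in RUNX1(41-214) minus Control are the 2 filled points, and Mxi1 at 0.58 lies farthest to the right in Runx1KO minus Control.

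Intervals show how much room each comparison leaves. In Runx1KO against Control, the 95% interval of the log2 fold change lay within -1 and 1, a fold of 2 either way, for 31 of 33 members, the others being Ldhb and Ddit4. For 7 members it lay within -0.5 and 0.5, a fold of 1.41. In RUNX1(41-214) against Control the same counts were 28 and 8, with Aldoc, Eno2, Ldhb, Slc16a1 and Egln3 outside the wider limit. In RUNX1(41-214) against Runx1KO they were 30 and 9, with Aldoc, Ldhb and Slc16a1 outside it.

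Lactate dehydrogenase is a tetramer of A and B subunits that interconverts pyruvate and lactate, and Ldhb fell while Ldha did not pass. Ldhb stood at 9.34, 8.91 and 8.57 in the RUNX1(41-214) replicates, at 10.34, 10.87 and 9.96 in the Runx1KO replicates, and at 10.96, 11.27 and 9.95 in the Control replicates. All 3 RUNX1(41-214) arrays lay below all 6 others, while Runx1KO and Control arrays overlapped. The mean was 8.94 ± 0.39 in RUNX1(41-214) against 10.73 ± 0.69 in Control cells (SD, n = 3 arrays). The log2 difference was -1.79 ± 0.34 (SE, limma adjusted p = 0.0104), or 3.45 times lower. In the deposited signal this was 363 to 631 in RUNX1(41-214) and 971 to 2481 in Control cells.

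All 4 Ldhb probe sets gave a fall of this size, at -1.79, -1.76, -1.88 and -1.94 from the brightest to the dimmest. The F test over the 3 groups also picked out Ldhb (adjusted p = 0.0225), the 1 member it called, where 3.4% of all genes were called. Ldhb in Runx1KO cells, at 10.39 ± 0.46, was not called against Control (-0.34 ± 0.34, adjusted p = 0.913). RUNX1(41-214) against Runx1KO gave -1.45 ± 0.34 (adjusted p = 0.0695), which passed in 7 of 20 alternative settings. Without Control replicate 1 the fall against Control was -1.67 with an adjusted p of 0.0550, and without both arrays of high 3′ to 5′ ratio it was -1.51 with an adjusted p of 0.0246.

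Ldha, the muscle-type subunit and a classical HIF target, had the narrowest intervals of the members. It read 12.53, 12.49 and 12.52 in RUNX1(41-214), 12.54, 12.52 and 12.45 in Runx1KO, and 12.51, 12.49 and 12.61 in Control cells. Its fold changes were -0.02 ± 0.07 in RUNX1(41-214) and -0.03 ± 0.07 in Runx1KO against Control, with 95% intervals of -0.18 to 0.13 and -0.19 to 0.12.

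The monocarboxylate transporters and the pyruvate dehydrogenase kinases completed this step. Slc16a1 (MCT1), which carries lactate either way across the membrane, was at 0.37 ± 0.29 in RUNX1(41-214) and -0.10 ± 0.29 in Runx1KO against Control. Slc16a3 (MCT4), the HIF-induced lactate exporter, was dim and at -0.04 ± 0.24 and 0.32 ± 0.24. Pdk1 and Pdk3, kinases that hold pyruvate back from the mitochondria, were at 0.15 ± 0.16 and 0.40 ± 0.25 in RUNX1(41-214), and at -0.11 ± 0.16 and 0.30 ± 0.25 in Runx1KO. These 4 genes did not pass in the 3 comparisons. Pdk3 in RUNX1(41-214) was at 0.73 with an adjusted p of 0.0465 without Control replicate 2, and 0.0321 without both arrays of high 3′ to 5′ ratio.

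**Figure D2:**
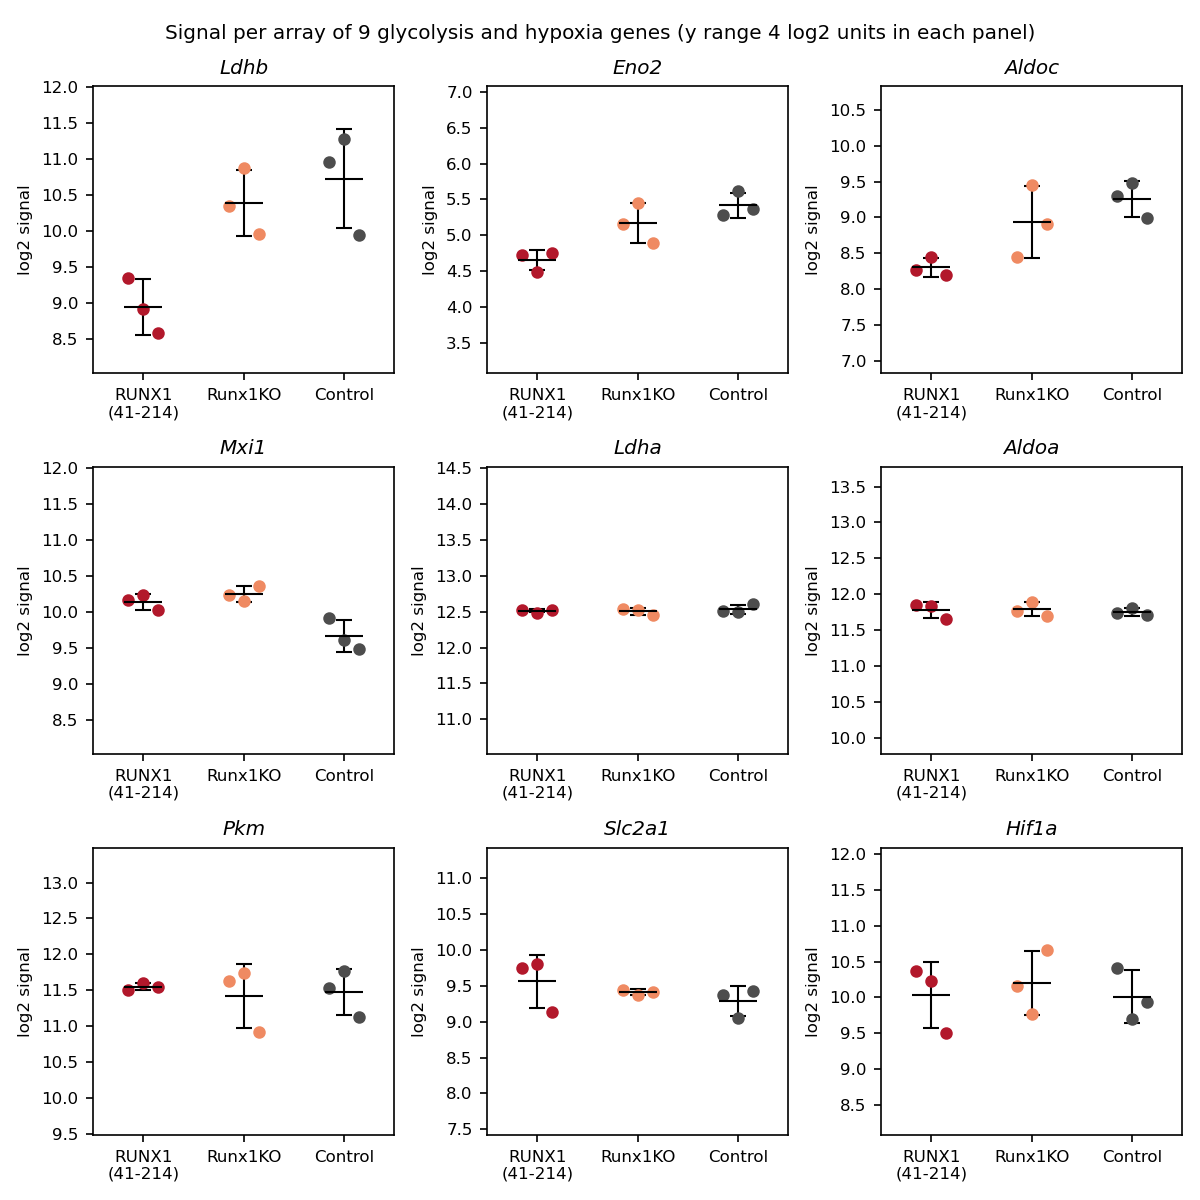
Log2 signal (y axis, 4 log2 units in each panel) of 9 genes in the 3 replicates of RUNX1(41-214), Runx1KO and Control cells. Points are arrays, bars the mean and SD. The Ldhb, Eno2 and Aldoc arrays of RUNX1(41-214) lie below all Control arrays, Mxi1 lies above them in both other groups, and Ldha and Aldoa overlap in all 3 groups.

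Enolase makes phosphoenolpyruvate, and its neuronal form Eno2 was the other gene that fell. Eno2, read from its 1 probe set, stood at 4.72, 4.49 and 4.76 in RUNX1(41-214), 5.16, 5.45 and 4.89 in Runx1KO and 5.28, 5.62 and 5.37 in Control cells. RUNX1(41-214) arrays lay below all others, close to the floor of the scale. The log2 fold change against Control was -0.77 ± 0.18 (adjusted p = 0.0299), in signals of 6.65 to 11.1 against 22.6 to 35.4. At the 19.6th percentile of mean signal this is a dim gene, and with no detection calls deposited its presence in these cells is not settled. The call was lost without any 1 of the 3 Control or the 3 RUNX1(41-214) replicates (adjusted p from 0.0530 to 0.138), and with both arrays of high 3′ to 5′ ratio left out (0.0580). An offset of 1 in place of 16 gave -1.46 and an offset of 50 gave -0.38. Eno3, the muscle enolase, was at 0.00 ± 0.27 in RUNX1(41-214) and -0.33 ± 0.27 in Runx1KO against Control.

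Aldolase splits fructose bisphosphate, and its brain form Aldoc had a difference of the same sign that did not pass. Aldoc read 8.27, 8.45 and 8.20 in RUNX1(41-214), 8.45, 9.46 and 8.91 in Runx1KO and 9.30, 9.48 and 8.99 in Control cells. RUNX1(41-214) arrays lay below all Control arrays, and Runx1KO arrays overlapped with Control. The log2 fold change of RUNX1(41-214) was -0.95 ± 0.26 (adjusted p = 0.0647), and 6 of 20 alternative settings gave an adjusted p under 0.05. The mean of its 2 probe sets was at -0.65 (adjusted p = 0.257). Aldoa, the main aldolase of most tissues, was at 0.02 ± 0.10 with an interval of -0.19 to 0.24, and its 4 probe sets ran from 0.02 to 0.09.

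The other enzymes of the lower pathway did not pass the test. Pkm, pyruvate kinase of muscle and most dividing cells, read 11.50, 11.60 and 11.55 in RUNX1(41-214), 11.62, 11.74 and 10.92 in Runx1KO and 11.53, 11.76 and 11.12 in Control cells. The groups overlapped, with Runx1KO replicate 3 and Control replicate 3 lowest. Tpi1, triose phosphate isomerase, read 11.68, 11.61 and 11.84 in RUNX1(41-214), 11.71, 11.76 and 11.47 in Runx1KO and 11.73, 12.00 and 11.96 in Control cells. Its differences were -0.19 ± 0.12 and -0.25 ± 0.12 against Control (adjusted p = 0.509 and 0.710).

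Pgk1, the phosphoglycerate kinase that makes the first ATP of the pathway, read 11.97, 11.98 and 11.93 in RUNX1(41-214), 12.04, 12.10 and 11.99 in Runx1KO and 12.31, 12.10 and 12.19 in Control cells. RUNX1(41-214) arrays lay below all others by a small margin, at -0.24 ± 0.09 against Control (adjusted p = 0.190). Pgam1, phosphoglycerate mutase, was at -0.10 ± 0.11 in RUNX1(41-214) and 0.05 ± 0.11 in Runx1KO. Gapdh could be read only from control probe sets, without quantile normalization and untested. Its 5′ probe set ran from 11.05 to 11.44 in RUNX1(41-214), 10.19 to 11.41 in Runx1KO and 10.54 to 11.27 in Control cells. It was lowest on the 2 arrays of high 3′ to 5′ ratio. The 3′ probe set was the brighter. That probe set gave 12.33, 12.32 and 12.41 in RUNX1(41-214), 12.40, 12.51 and 12.30 in Runx1KO, and 12.43, 12.38 and 12.23 in Control cells, so that the groups overlapped.

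Glucose uptake and the first, committing steps showed 0 of 7 members past the threshold in each comparison. Slc2a1 (GLUT1), the basal glucose transporter and a HIF target, read 9.75, 9.80 and 9.14 in RUNX1(41-214), 9.45, 9.37 and 9.42 in Runx1KO, and 9.38, 9.05 and 9.43 in Control cells. Its fold change of 0.28 ± 0.21 in RUNX1(41-214) did not pass (adjusted p = 0.604), and RUNX1(41-214) replicate 3 lay below 2 of the Control arrays. Slc2a3 (GLUT3), the high-affinity transporter, was at -0.03 ± 0.20 in RUNX1(41-214) and 0.19 ± 0.20 in Runx1KO.

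Hexokinase traps glucose in the cell. Hk1, its constitutive form, read 11.72, 11.82 and 11.62 in RUNX1(41-214), 11.64, 11.70 and 11.72 in Runx1KO, and 10.95, 11.56 and 11.57 in Control cells. Both groups lay above all Control arrays, by 0.36 ± 0.15 and 0.33 ± 0.15 on average, and neither passed (adjusted p = 0.269 and 0.694). Both comparisons share the Control arrays, of which replicate 1 was lowest. Hk2, the inducible hexokinase, was at 0.01 ± 0.31 and -0.11 ± 0.31, with Control arrays spread from 9.38 to 10.83. The phosphofructokinase genes, whose enzyme sets the pace of glycolysis, were at -0.35 ± 0.27 (Pfkl, liver type), -0.33 ± 0.23 (Pfkm, muscle type) and 0.03 ± 0.20 (Pfkp, platelet type) in RUNX1(41-214). In Runx1KO they were at -0.13 ± 0.27, -0.27 ± 0.23 and 0.08 ± 0.20.

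The genes of the HIF switch itself did not pass the test. Hif1a, the oxygen-regulated subunit, which is controlled mainly as a protein, read 10.37, 10.24 and 9.51 in RUNX1(41-214), 10.17, 9.77 and 10.66 in Runx1KO and 10.41, 9.69 and 9.93 in Control cells. The 3 groups overlapped, and the 95% interval of RUNX1(41-214) against Control was -0.59 to 0.64. Of its 4 probe sets the third in brightness stood apart, at -1.88 in RUNX1(41-214) and -1.07 in Runx1KO against Control, and did not pass (adjusted p = 0.141 and 0.847 over all probe sets). Egln1 (PHD2), the main oxygen-sensing prolyl hydroxylase, was at -0.39 ± 0.22 in RUNX1(41-214) and 0.03 ± 0.22 in Runx1KO. Egln3 (PHD3), which HIF induces in turn, was at -0.56 ± 0.27 and -0.28 ± 0.27. With both arrays of high 3′ to 5′ ratio left out, Egln1 was at -0.66 in RUNX1(41-214) with an adjusted p of 0.0358.

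Of the 9 other hypoxia targets, 0 passed in each comparison. Mxi1, a repressor that opposes Myc, came closest. It read 10.17, 10.23 and 10.02 in RUNX1(41-214), 10.24, 10.15 and 10.36 in Runx1KO and 9.91, 9.62 and 9.48 in Control cells. All 6 arrays of both groups lay above the Control arrays. The differences were 0.47 ± 0.16 (adjusted p = 0.155) and 0.58 ± 0.16 (adjusted p = 0.239), and neither passed in any of 20 alternative settings. Mxi1 in Runx1KO was the 1 member with an unadjusted p under 0.05 in that comparison.

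Ndrg1, a hypoxia and stress gene linked to differentiation, read 12.03, 12.11 and 12.11 in RUNX1(41-214), 11.68, 12.14 and 12.01 in Runx1KO and 11.87, 11.59 and 11.73 in Control cells. The RUNX1(41-214) arrays lay above the Control arrays by 0.35 ± 0.12 (adjusted p = 0.169), and its 5 probe sets ran from 0.35 to 0.63. Higd1a, a hypoxia-induced mitochondrial protein, read 10.85, 10.83 and 11.03 in RUNX1(41-214) and 10.65, 10.25 and 10.58 in Runx1KO cells, without overlap (0.41 ± 0.17, adjusted p = 0.402). Control cells, at 10.47, 10.62 and 11.03, overlapped with both groups. Its 2 dimmer probe sets had the opposite sign, at -0.12 and -0.23.

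The remaining targets did not pass the test. Vegfa, the angiogenic growth factor, was dim at 5.64, 4.996 and 5.08 in RUNX1(41-214), 5.80, 4.45 and 5.66 in Runx1KO and 5.41, 4.66 and 5.45 in Control cells. Bnip3, a mitophagy receptor, was at 0.15 ± 0.28 in RUNX1(41-214) and 0.32 ± 0.28 in Runx1KO. Ddit4 (REDD1), an inhibitor of mTOR, was at -0.13 ± 0.32 and -0.32 ± 0.32. P4ha1 and P4ha2, collagen prolyl hydroxylase subunits, were at -0.13 ± 0.26 and 0.15 ± 0.17 in RUNX1(41-214), and at 0.22 ± 0.26 and -0.07 ± 0.17 in Runx1KO. P4ha1 arrays of RUNX1(41-214), from 7.59 to 7.96, lay below those of Runx1KO, from 7.98 to 8.39 (-0.35 ± 0.26, adjusted p = 0.710). Ero1a, an oxidase of the endoplasmic reticulum, was at 0.17 ± 0.25 and 0.23 ± 0.25.

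**Figure D3:**
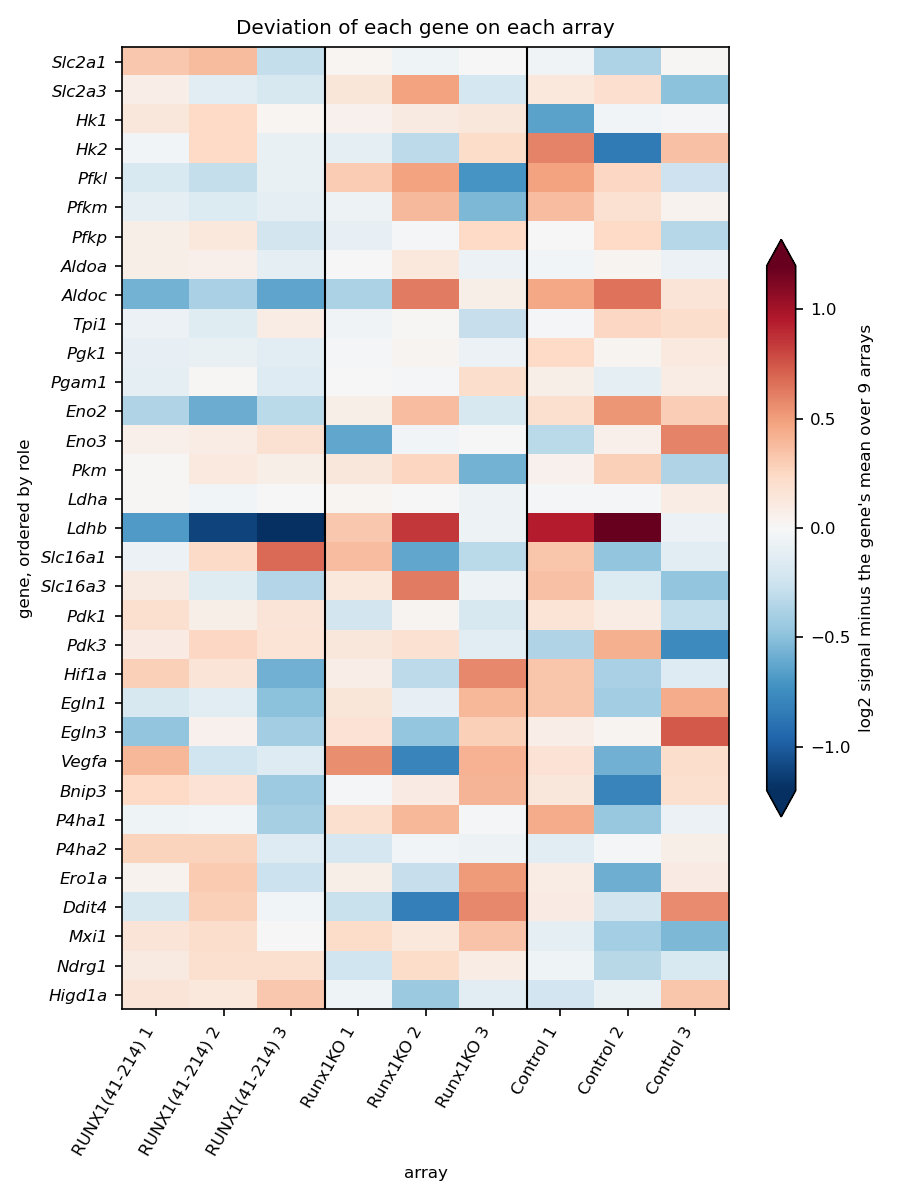
Log2 signal of each of the 33 genes (rows, by role) on each of the 9 arrays (columns) minus the gene's mean over all 9, in red above and blue below it. Ldhb, Eno2 and Aldoc are blue on all 3 RUNX1(41-214) arrays, and Hk2, Bnip3, Vegfa and Ero1a are blue on Control replicate 2.

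Extreme values were spread over several arrays. Control replicate 2 was the lowest of the 9 arrays for 6 of 33 members and the highest for 6, and Control replicate 3 the lowest for 6 and the highest for 5. Runx1KO replicate 3 was the lowest for 5 and the highest for 7, and Runx1KO replicate 2 the lowest for 4 and the highest for 5. RUNX1(41-214) replicate 3 was the lowest for 7 and the highest for 1, and the other 4 arrays were at either end for 3 to 5 members. Hk2 read 9.38 and Bnip3 9.03 on Control replicate 2, each the lowest of all arrays.

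Markers of other cell types moved between the same groups. Of 6 measured B cell markers 3 fell and 0 rose in RUNX1(41-214) against Control, with a summed deposited signal of 1196 to 1560 in RUNX1(41-214), 4321 to 9287 in Runx1KO and 5813 to 6418 in Control cells. Ighm was the brightest of them, and Cd79b and Ms4a1, not called, were at 0.08 and 0.14. T and NK cell markers, of which 3 of 6 fell and 3 lie under the 25th percentile of genes by signal, summed to 237 to 388 in RUNX1(41-214), 488 to 1117 in Runx1KO and 1128 to 1484 in Control cells. Of these 6, Gzmb, at the 24.97th percentile and so among the 3 dim ones, also fell in Runx1KO against Control. Cd3g, not called, lay higher, at 0.50 in RUNX1(41-214) against Control. Megakaryocyte and platelet markers, of which 3 of 7 rose, summed to 9141 to 11627 in RUNX1(41-214), 5680 to 7358 in Runx1KO and 2897 to 3687 in Control cells. The same 3, Itga2b, Gp5 and Treml1, also rose in Runx1KO against Control. Mast cell and basophil markers, of which 3 of 6 rose, summed to 8673 to 10028 in RUNX1(41-214), 7024 to 7889 in Runx1KO and 4111 to 4606 in Control cells. Gata2, not called, averaged 11.92 in RUNX1(41-214) and 11.85 in Control cells, and Cpa3 12.20 and 8.43. Mcpt8 and Fcer1a, not called, lay lower, at -0.56 and -1.29. Of these 6, Cpa3 also rose in Runx1KO against Control. Of 5 measured erythroid markers 2 rose in RUNX1(41-214) against Control and also against Runx1KO, with a summed signal of 631 to 1558 in RUNX1(41-214), 288 to 869 in Runx1KO and 303 to 2196 in Control cells. They were Alas2, the first enzyme of haem synthesis in red cells, at 2.20 ± 0.41 against Control (adjusted p = 0.0102), and Slc4a1, the band 3 anion exchanger, at 2.91 ± 0.55 (adjusted p = 0.0109). Klf1 and Epor had the opposite sign against Control, at -0.82 ± 0.87 and -0.22 ± 0.63, and did not pass. The haemoglobin gene Hba-a1 stood near the floor, averaging 4.39 in RUNX1(41-214), 4.49 in Runx1KO and 4.34 in Control cells. Of 8 granulocyte markers 0 passed. Of 6 macrophage and dendritic cell markers 3 fell in RUNX1(41-214) against Control, namely Cd74, Mpeg1 and Ccr2. The other 3, not called, lay higher, with Csf1r at 0.82, Adgre1 at 1.19 and Cd68 at 0.18. Of 7 genes of the gate and of stem or progenitor cells, Kit rose and Procr fell in RUNX1(41-214) against Control. In RUNX1(41-214) against Runx1KO, Ighm, Blnk, Cd74, Ccr2 and Procr also fell, and Itga2b and Ms4a2 also rose. The part of these shifts in the fall of Ldhb and Eno2 was not tested. In such bulk samples fewer cells of a type and less RNA per cell cannot be told apart.

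The summed signal of 7 proliferation markers overlapped among the groups, at 15559 to 21308 in RUNX1(41-214), 13847 to 22838 in Runx1KO and 16053 to 22210 in Control cells, and 0 of them passed in any comparison.

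Beyond the members, 7 lists of related genes held 109 genes, of which 84 were measured. In RUNX1(41-214) against Control 2 rose and 2 fell, a share near the 4.28% of all genes that passed, so the count does not set these lists apart. In Runx1KO against Control 0 passed, and in RUNX1(41-214) against Runx1KO 0 passed. Among HIF subunits and regulators 1 of 11 rose. This was Cited2, a HIF-induced protein that competes with HIF-1α for its coactivators, at 11.87, 11.99 and 11.53 in RUNX1(41-214), 11.67, 11.78 and 12.08 in Runx1KO and 11.27, 10.85 and 10.81 in Control cells. All 6 arrays of both groups lay above Control, by 0.82 ± 0.17 (adjusted p = 0.0146) and 0.86 ± 0.17 (adjusted p = 0.0562). The first call was lost without Control replicate 3 (0.0676), RUNX1(41-214) replicate 1 (0.0763) or RUNX1(41-214) replicate 2 (0.0864). Epas1 (HIF-2α), Arnt (HIF-1β) and Vhl were at 0.03 ± 0.10, -0.03 ± 0.22 and -0.02 ± 0.18 in RUNX1(41-214), with Epas1 near the floor. These last 3 were named after their values were seen.

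Among other HIF targets 2 of 26 fell and 0 rose in RUNX1(41-214) against Control, where 2.56% of all genes fell and 1.73% rose. Called or not, 15 of the 26 lay above Control and 11 below, with a median of 0.08. Ak4, a mitochondrial adenylate kinase, read 8.31, 8.37 and 7.62 in RUNX1(41-214), 8.71, 8.27 and 7.81 in Runx1KO and 9.42, 9.92 and 9.69 in Control cells. All arrays of both groups lay below Control, by -1.58 ± 0.28 (adjusted p = 0.00783) and -1.41 ± 0.28 (adjusted p = 0.0699) on the log2 scale. The mean of its probe sets was at -0.57 in RUNX1(41-214) and did not pass (adjusted p = 0.0646). Tfrc, the transferrin receptor, read 10.02, 10.24 and 10.64 in RUNX1(41-214), 10.87, 10.51 and 10.60 in Runx1KO, and 10.81, 11.22 and 11.13 in Control cells. Its fall of -0.75 ± 0.18 (adjusted p = 0.0414) passed in 7 of 20 alternative settings, and without 1 array it was lost in 7 of 9 omissions, those of Control replicate 1 and RUNX1(41-214) replicate 3 excepted.

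Among upstream regulators of glucose metabolism 1 of 11 rose in RUNX1(41-214). Myc, which drives many glycolytic genes, read 11.26, 11.16 and 11.08 in RUNX1(41-214), 10.92, 10.72 and 10.74 in Runx1KO, and 10.56, 10.58 and 9.87 in Control cells. RUNX1(41-214) arrays lay above all others, by 0.83 ± 0.18 against Control (adjusted p = 0.0249). The call was lost without RUNX1(41-214) replicate 1 (0.122), 2 (0.0961) or 3 (0.0592). Its difference in Runx1KO was 0.45 ± 0.18 (adjusted p = 0.585).

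In the other 4 lists 0 genes passed in the 3 comparisons. Of 13 other glycolytic enzymes, Pgm2 had the lowest p in RUNX1(41-214) against Control (0.61 ± 0.17, adjusted p = 0.0828). Of 8 other transporters and their partners it was Emb, a chaperone of monocarboxylate transporters (-0.75 ± 0.20, adjusted p = 0.0675). Of 8 genes of pyruvate entry it was Pdk4, another pyruvate dehydrogenase kinase (-0.48 ± 0.15, adjusted p = 0.133). Of 7 pentose phosphate genes it was Tkt, transketolase (-0.20 ± 0.08, adjusted p = 0.205). In Runx1KO against Control all 7 pentose phosphate genes lay below Control, H6pd and Taldo1 by only -0.004 and -0.007. The median of the 7 was -0.14, beside -0.004 for all genes, and 0 passed the threshold. The lowest p was that of Pgls, an enzyme of the oxidative branch (-0.50 ± 0.24, adjusted p = 0.705). Pgls was at 0.86 ± 0.24 in RUNX1(41-214) against Runx1KO (adjusted p = 0.141).

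**Figure D4:**
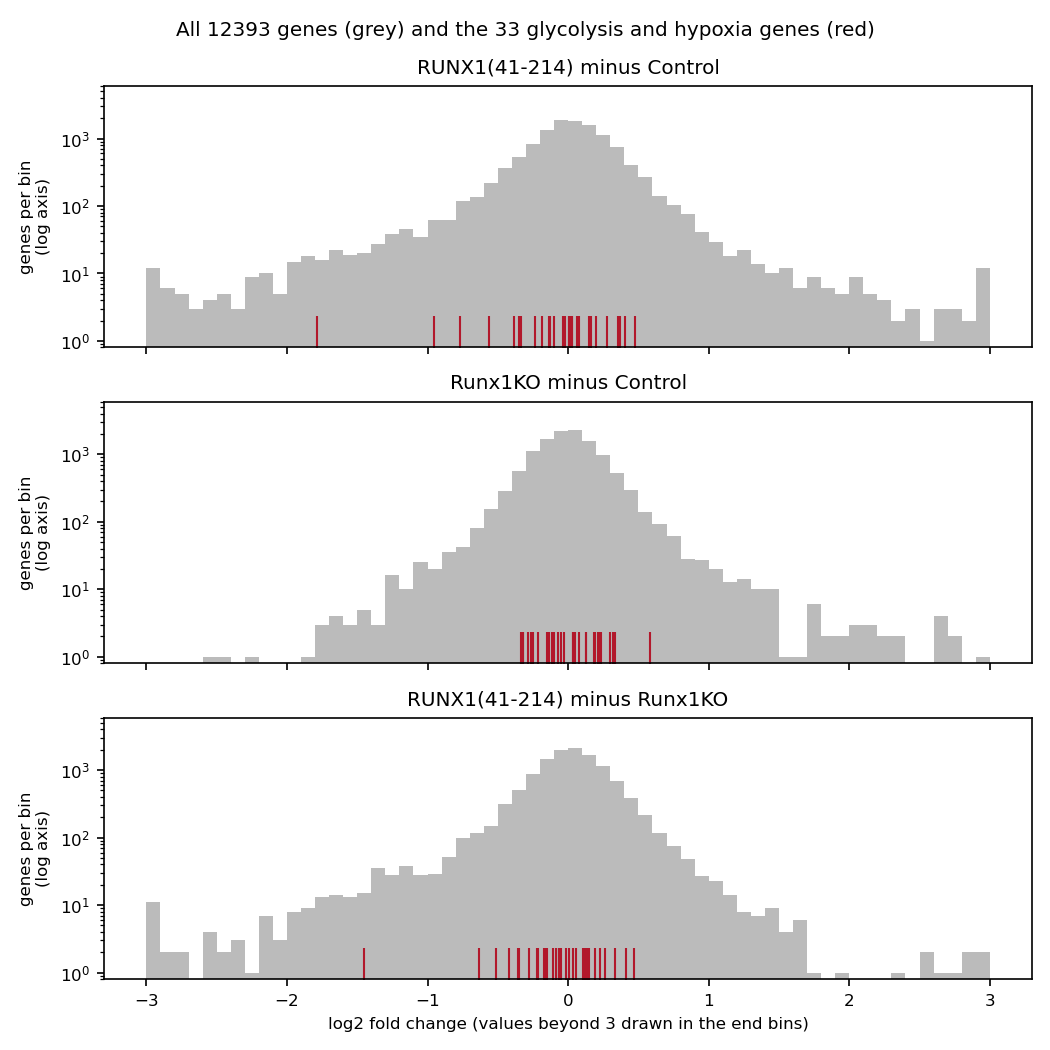
Histogram of log2 fold changes (x axis) of all 12393 genes in grey (y axis, genes per bin of width 0.1, log scale), with the 33 members as red ticks, for the 3 comparisons. Ldhb at -1.79 against Control and -1.45 against Runx1KO is the tick farthest from the centre, and in Runx1KO minus Control all members lie between -0.34 and 0.58.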

How the data were processed

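Sorted bone marrow cells were measured on 9 Affymetrix arrays. The deposited values are linear signal intensities for 22690 probe sets, and per the labels' protocols the RNA was labelled with biotin in 2 amplification cycles. How signals were summarised and scaled is not given in the sources used here, and 64 control probe sets were left out. Signals were turned into log2(signal + 16) and quantile normalized, since array medians spanned 0.211. Of 22626 probe sets, 20380 carried 1 gene symbol, 691 several and 1555 none in the platform table, and 20351 of the 20380 matched the RefSeq table by gene identifier. The brightest probe set stood for each of 12393 genes, chosen on the deposited values.

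The 3 group means were estimated from the 9 arrays together by limma 3.58.1 under R 4.3.3 (lmFit, eBayes with a variance trend, 6 residual and 5.6 prior degrees of freedom), two-sided, with Benjamini-Hochberg adjustment over all genes. Intervals are 95% intervals from this fit. With 3 arrays against 3 an exact permutation test cannot go below 0.1. The number of arrays limits the precision (median SE 0.203). The fit was tested on simulated data. In all, 20 alternatives per comparison were run, and 18 for the F test. Same-numbered replicates of different groups had deviations correlated at -0.174 to 0.418. For Runx1KO and Control these were 0.03, 0.41 and 0.42 for numbers 1, 2 and 3, against -0.465 to 0.142 for different numbers. Whether these 2 groups were paired is not settled. The labels state no pairing, so the numbers were not taken as pairs, and a fit with the number as a block is given below.

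Named were all 36 members, with values per array for those past the threshold, for Hif1a, Gapdh, Ldha, Pkm, Slc2a1 and Vegfa, and for the 4 of lowest p in a comparison without calls. Ndrg1 was given per array after its values were seen. Of each related list, genes past the threshold were named, or the 1 with the lowest p, in RUNX1(41-214) against Control. The members and lists were chosen with earlier results of these data known.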

Additional observations from a re-analysis of the deposited data

How the results depend on the processing

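The count of members past the threshold in RUNX1(41-214) against Control, 2, was 1 with a minimum fold of 1.2. It ran from 0 to 3 when 1 array was left out, with 0 without Control replicate 1. It was 1 without Control replicate 3 or any 1 RUNX1(41-214) replicate. Without quantile normalization, and with only the 6 arrays of these 2 groups, it was 3, with Aldoc added. With both arrays of high 3′ to 5′ ratio left out it was also 3. There Ldhb stayed, Eno2 was lost, and Pdk3 (higher) and Egln1 (lower) were added. In RUNX1(41-214) against Runx1KO the count of 0 was 1 (Ldhb) with dim genes left out, with array weights, with only the 6 arrays of those groups, with both arrays of high 3′ to 5′ ratio left out, and without Control replicate 2 or 3, a range of 0 to 1 over single omissions. The F test's 1 was 2 with array weights, and 0 without Control replicate 1 or RUNX1(41-214) replicate 2 or 3, a range of 0 to 1. In Runx1KO against Control the count was 0 in all 20 alternatives run. With the replicate number as a block the counts were 3, 1, 0 and 1 for RUNX1(41-214) against Control (Aldoc added), RUNX1(41-214) against Runx1KO (Ldhb), Runx1KO against Control and the F test, though the numbers were not shown to pair the arrays. The cause of these differences was not tested, beyond the fewer arrays or genes that an omission leaves.

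Of 1971 values of single members under the alternatives, 0 called values changed sign, 9 calls were lost and 16 were gained. Another 126 values, none called, had the opposite sign. Calls over all genes ran from 294 (minimum fold of 1.2) to 765 (array weights) around 531, from 9 (only those 6 arrays) to 65 (dim genes left out) around 43, from 74 (without RUNX1(41-214) replicate 2) to 371 (array weights) around 168, and from 209 (without RUNX1(41-214) replicate 2) to 678 (array weights) around 421 in the F test, in the order RUNX1(41-214) against Control, Runx1KO against Control, RUNX1(41-214) against Runx1KO and F test. Eno2 was not tested with dim genes left out.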
